A study of Mus musculus with 6 samples.

Results

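Aminoacyl-tRNA synthetases are the enzymes that load each tRNA with its amino acid. The transcripts of 36 of them, 20 cytosolic and 16 mitochondrial, were followed in growing mouse oocytes with and without Pabpn1. Members were the rows of the deposited expression table whose symbol names a synthetase from a given list, 36 of 23235 rows, and symbols ending in 2 were taken as the mitochondrial enzymes. Growing oocytes of C57BL/6 mice (C57BL/6J in the study's methods), at 10 oocytes per sample, were sequenced from WT animals and from Pabpn1fl/fl;Gdf9-Cre animals (Pabpn1-null), with 3 samples of each genotype and all 6 used here. Cre under the Gdf9 promoter, which is active in oocytes, removed the floxed gene, so the other cells of the ovary kept it. The control mice were littermates, the labels gave no age or treatment, and no source used here says whether each sample is from its own mouse. The study's methods call the samples biological replicates, and the p-values reflect the spread among these samples. The Smart-seq2 libraries were primed with oligo-dT, which captures a transcript through its poly(A) tail, and levels are given as FPKM, fragment counts scaled to the length of the transcript and to the mapped reads of the sample.

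Each synthetase recognizes its amino acid and its set of tRNAs, joins them by an ester bond at the cost of ATP, and so sets the meaning of the codons that the ribosome reads. Cytosol and mitochondria use separate enzymes for most amino acids, all of them encoded in the nucleus, while Gars and Kars each serve both compartments from a common gene, and Eprs joins the glutamate and proline enzymes in a fused protein. In the cytosol of animal cells, several synthetases are held with the scaffold proteins Aimp1, Aimp2 and Eef1e1 in the multisynthetase complex. Growing oocytes synthesize and store large amounts of protein and carry many mitochondria, so that both sets of enzymes are in use.

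Many cytosolic synthetase genes are known targets of ATF4, the transcription factor of the amino acid and stress response, which binds DNA with C/EBP proteins at an element that can be written as TGATGNAA, or TTNCATCA on the other strand. RefSeq promoter windows, 250 bases before to 50 bases after the start of the gene, were held for 26 of the 36 genes, all but Cars, Hars, Lars, Mars, Nars, Rars, Vars, Wars, Hars2 and Pars2. The element occurred on either strand in 5 of 12 cytosolic windows and 0 of 14 mitochondrial windows, against 4.51% of the 27025 genes with a window. These 5 genes, Aars, Gars, Iars, Tars and Yars, were all among the 7 ATF4 targets of the list with a window. A site in each is shown because the results come back to these genes, 5′ to 3′ on the strand of the gene, in build GRCm38.p6, with the element in capitals.
Tars (chr15:11399655-11399684, minus strand): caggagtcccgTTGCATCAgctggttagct
Aars (chr8:111033840-111033869, plus strand): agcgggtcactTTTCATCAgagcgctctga
Gars (chr6:55037960-55037989, plus strand): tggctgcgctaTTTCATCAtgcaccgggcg
Iars (chr13:49682126-49682155, plus strand): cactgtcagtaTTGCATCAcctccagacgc
Yars (chr4:129189895-129189924, plus strand): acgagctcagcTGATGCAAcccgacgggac
A match of these letters is a description of the sequence and not a measured site, and its absence from a window says only that these letters were not in it. The remaining coordinates are those of the mm9 annotation, the build the authors mapped to.

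Pabpn1 itself was at 21.9, 33.4 and 21.8 FPKM in the WT samples and at 0.595, 0.878 and 1.37 FPKM in the Pabpn1-null samples, as the labels give it. Of 15 oocyte markers all were measured, with a summed level of 17605 to 21361 FPKM over the 6 samples. Granulosa markers summed to 32.5 to 39.4 FPKM in WT against 32.6 to 47.1 FPKM in Pabpn1-null samples, theca and stromal markers to between 1.68 and 2.74 FPKM, and blood and endothelial markers to between 6.89 and 11.3 FPKM. Of the 8 granulosa markers tested, 2 were called higher and 1 lower, beside 27.9% and 20.2% of all rows. Their median log2 change was 0.51, and the part of these cells in the results was not tested. Amh was at 0 in every WT sample, and Hbb-b1, Hba-a1 and Cdh5 were at 0 in all 6. The study gives the total reads and mapping efficiency of each sample, but no count of reads behind each value. No interval for counting error was therefore computed. Changes are differences of log2(FPKM + 1), a scale on which the change of a low transcript is understated.

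The cytosolic enzymes spanned almost 3 orders of magnitude in WT oocytes. Farsb, the beta subunit of the phenylalanine enzyme, had the highest level, with 152, 114 and 177 FPKM in the 3 WT samples. Rars, the arginine enzyme, followed at 132, 113 and 133 FPKM and Qars, the glutamine enzyme, at 110, 102 and 134 FPKM. The ranges of these top transcripts overlapped, so their order was within the spread of the samples. The tyrosine and valine enzymes Yars and Vars were at the other end, with all WT values between 0.258 and 0.499 FPKM.
Mitochondrial enzymes were mostly lower, with a median WT level of 4.53 FPKM over the 15 tested members against 21.1 FPKM for the cytosolic ones. The exceptions were Fars2, the mitochondrial phenylalanine enzyme, at 70.6, 55.1 and 63.2 FPKM, Lars2, the leucine enzyme, at 48.7, 80.03 and 38.5 FPKM, and Rars2, the arginine enzyme, at 44.1, 39.2 and 47.9 FPKM. These again overlapped, whereas the next in order, Yars2, was at 6.26 to 7.10 FPKM. Hars2, the histidine enzyme, had the lowest level, between 0.0483 and 0.408 FPKM in all 6 samples. FPKM is set per length, but this does not account for capture through the poly(A) tail or for unique mapping. The order of levels between genes is therefore approximate.

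**Figure D1:**
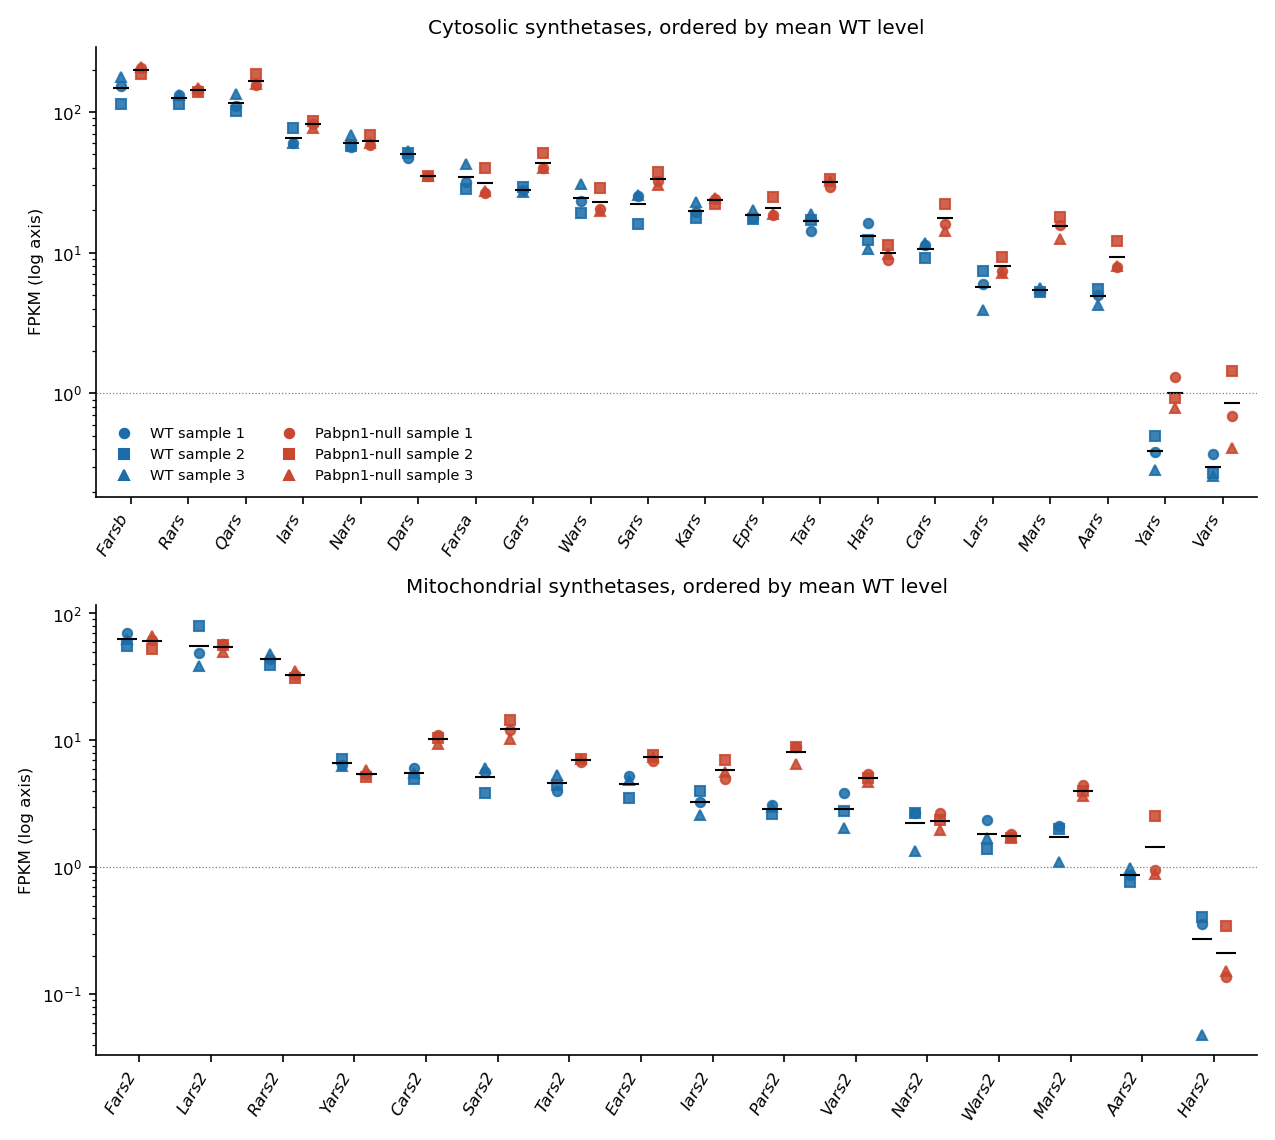
FPKM (log axis) of each synthetase in the 3 WT (blue) and 3 Pabpn1-null (red) samples, with the mean of each genotype as a black line and 1 FPKM as a dotted line, for cytosolic (top) and mitochondrial (bottom) enzymes. Mars lies between 5.20 and 5.58 FPKM in WT and between 12.5 and 17.9 FPKM in Pabpn1-null samples, while Dars and Rars2 lie lower in every Pabpn1-null sample.

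Of the 35 synthetases that could be tested, 17 were called higher in Pabpn1-null oocytes as deposited, 2 lower and 16 neither. Of 20 cytosolic enzymes, 9 were higher, 1 was lower and 10 did not pass the test, and of 15 mitochondrial enzymes 8 were higher, 1 was lower and 6 did not pass. The test was limma on log2(FPKM + 1) over the 12523 rows that exceeded 1 FPKM in at least 1 sample, with a Benjamini-Hochberg adjusted p under 0.05. Over all these rows, 27.9% were called higher and 20.2% lower. Hars2 did not pass the filter and was not tested, and Vars, Yars and Aars2 passed it only through Pabpn1-null samples. Of these 3, Yars was called higher, and without them 8 of 18 cytosolic and 8 of 14 mitochondrial enzymes were higher. The genotypes did not overlap for 12 cytosolic enzymes that were higher and 1 that was lower, and for 8 and 2 mitochondrial enzymes, where 33.3% of all rows were higher and 24.7% lower without overlap. The 12 include Vars and Yars, which entered the test through their Pabpn1-null samples.
The median log2 change was 0.45 for the cytosolic and 0.53 for the mitochondrial enzymes, against 0.09 for all rows. FPKM is relative to the reads of a sample, so the direction of a family depends on how the samples are scaled. With the factors that lead from the deposited values to those of the study's supplementary table of changed transcripts, which were estimated here and are not stated by the study, the median of all rows turned to -0.36, that of the cytosolic enzymes to -0.07 and that of the mitochondrial enzymes to 0.05. With these factors 1 cytosolic and 1 mitochondrial enzyme were called higher and 3 of each lower, beside 9.4% and 35.5% of all rows. Relative to the median of all rows, the cytosolic median stood between 0.29 and 0.35 and the mitochondrial median between 0.37 and 0.44 under the 5 scalings tried. The sum over all 36 transcripts was 0.131% to 0.144% of the total FPKM of a sample in WT and 0.180% to 0.206% in Pabpn1-null oocytes, with no overlap, a share that does not change with the scaling of a sample. The share of the 15 oocyte markers was also higher without overlap, 2.60% to 2.76% in WT against 3.21% to 3.35% in Pabpn1-null oocytes. Of these 15, 9 were called higher and 2 lower as deposited, beside 27.9% and 20.2% of all rows, with a median log2 change of 0.46. Such a rise was therefore not particular to the synthetases. Each sample held 10 oocytes, and FPKM, being relative to the reads of a sample, does not give the amount of RNA per oocyte.
Pabpn1-null replicate 2 was the highest of the 3 Pabpn1-null samples for 15 of 20 cytosolic and 5 of 15 mitochondrial enzymes. WT replicate 3 held a like place, as the highest WT sample for 13 of 20 cytosolic and 4 of 15 mitochondrial enzymes. With Pabpn1-null replicate 2 left out, limma called 3 cytosolic and 4 mitochondrial enzymes higher, beside 22.2% of all rows. It called 1 and 0 lower, beside 15.0%. The cytosolic median relative to all rows was 0.23 at its lowest over the samples left out in turn. Pabpn1-null replicate 2 also had the highest summed granulosa markers, 47.1 FPKM, and WT replicate 3 the highest of the WT samples, 39.4 FPKM.

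**Figure D2:**
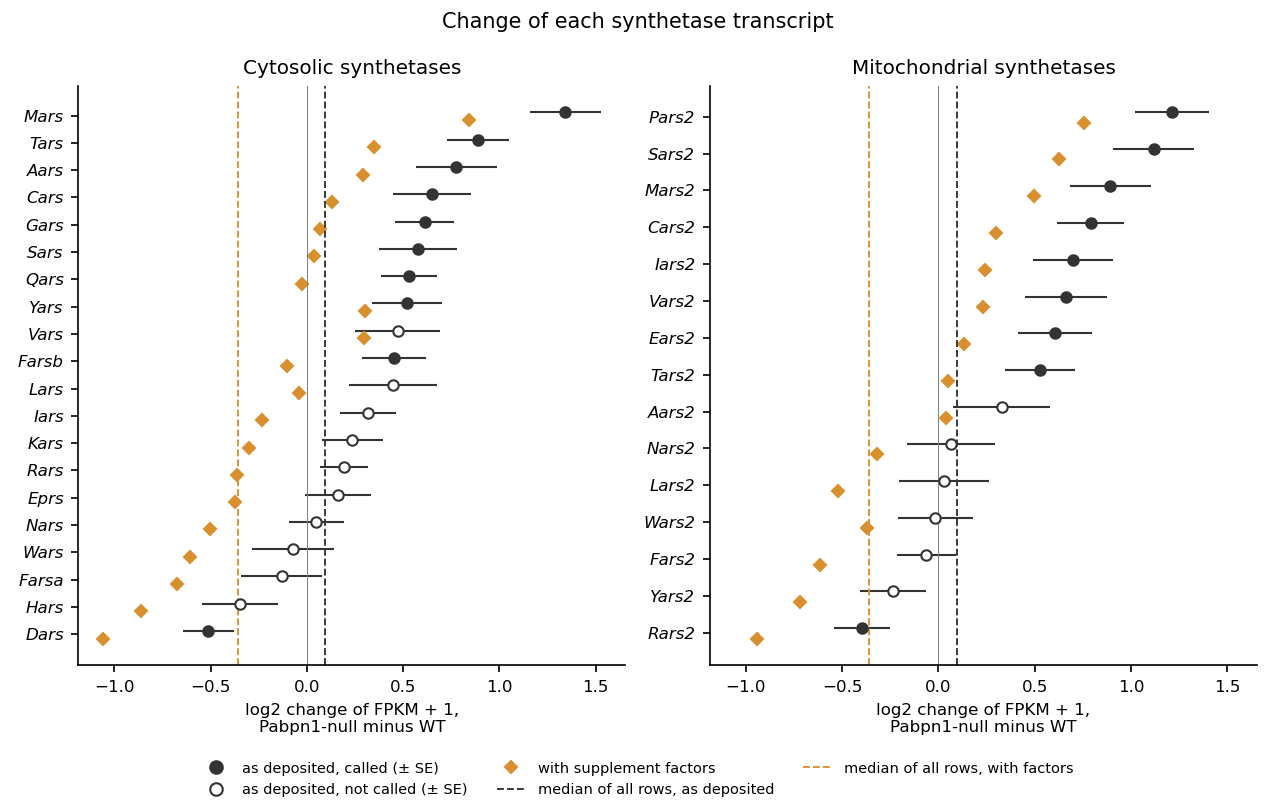
Log2 change of FPKM + 1 (Pabpn1-null minus WT) of the 35 tested synthetases as deposited (circles with the standard error (SE), filled where called) and with the supplement factors (diamonds), beside the median of all rows under each (dashed lines at 0.09 and -0.36). Mars and Pars2 stay above 0 and called under both scalings, and the other 15 enzymes called higher as deposited lie between -0.11 (Farsb) and 0.63 (Sars2) with the factors, without a call and above the median of all rows.

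Mars, the methionine enzyme, which also charges the initiator tRNA, had the largest rise of the cytosolic set. In mm9 it occupies 126733277 to 126748842 of chromosome 10 (minus strand). Its level was 5.38, 5.20 and 5.58 FPKM in WT against 15.6, 17.9 and 12.5 FPKM in Pabpn1-null oocytes. The Pabpn1-null samples were well above the narrow WT range, 2.85-fold higher on average, with a log2 change of 1.34 (SE 0.18, limma adjusted p = 3.94e-04). The call held in all 18 settings, and with the supplement factors the log2 change was 0.84 (limma adjusted p = 0.0135). The end of Mars overlaps that of Ddit3, a gene of the stress response on the other strand, by 68 bases, and no source states that counting used strand. Ddit3 was at 51.5 to 73.0 FPKM in WT against 68.7 to 75.9 FPKM in Pabpn1-null oocytes, with overlap.
Tars, the threonine enzyme, on chromosome 15 from 11313418 to 11329413, was at 14.3, 17.0 and 18.7 FPKM in WT against 29.0, 33.5 and 32.3 FPKM in Pabpn1-null oocytes. All Pabpn1-null samples were above all WT samples (log2 change 0.89, SE 0.16, limma adjusted p = 0.00166). The call held in 17 of 18 settings, the exception being the supplement factors (0.35, limma adjusted p = 0.248). Its promoter window holds the ATF element close to the start of the gene.
Aars, the alanine enzyme, whose window holds the element, was at 4.97, 5.55 and 4.25 FPKM in WT against 7.84, 12.0 and 7.98 FPKM in Pabpn1-null oocytes. Its rise of 0.78 on the log2 scale (limma adjusted p = 0.0126) leaned on Pabpn1-null replicate 2, the highest sample, without which it was 0.59 (limma adjusted p = 0.0503). Gars, the glycine enzyme of both compartments, was at 28.0, 29.1 and 26.8 FPKM in WT against 40.0, 51.0 and 39.7 FPKM in Pabpn1-null oocytes. The WT samples lay close together and below all Pabpn1-null samples (log2 change 0.61, SE 0.15, limma adjusted p = 0.00882).
Cars, the cysteine enzyme, went from 11.3, 9.08 and 11.6 FPKM to 15.98, 22.3 and 14.3 FPKM, and Sars, the serine enzyme, from 25.3, 15.9 and 25.7 FPKM to 32.1, 37.1 and 30.3 FPKM. Neither overlapped between the genotypes. The call of Cars (log2 change 0.65, limma adjusted p = 0.0232) held in 12 of 18 settings and was lost without WT replicate 2, Pabpn1-null replicate 1 or Pabpn1-null replicate 2 (limma adjusted p = 0.0662, 0.0622 and 0.0875). That of Sars (0.58, limma adjusted p = 0.0377) held in 8 of 18 and was lost without WT replicate 2 or any 1 of the Pabpn1-null samples (limma adjusted p from 0.0636 to 0.13). With the supplement factors the log2 changes of Aars, Gars, Cars and Sars were 0.29, 0.07, 0.13 and 0.04 and did not pass.
Yars, the tyrosine enzyme, was called at a low level, 0.284 to 0.499 FPKM in WT against 0.783 to 1.30 FPKM in Pabpn1-null samples (log2 change 0.52, limma adjusted p = 0.0386). It exceeded 1 FPKM in Pabpn1-null samples alone, so the filter itself favoured a rise and the adjusted p is not evidence of one. This call held in 10 of 17 settings that could be fitted, and was lost without WT replicates 1 or 3 or Pabpn1-null replicates 1 or 2 (limma adjusted p from 0.0547 to 0.11).

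Of the 8 enzymes of the multisynthetase complex, 2 were higher, 1 was lower and 5 did not pass, and of the 12 cytosolic enzymes outside it 7 were higher and 0 lower by limma, and the unadjusted p under 0.05 gave the same counts, beside 27.9% of all rows higher and 20.2% lower. The 7 include Yars, which entered the test through its Pabpn1-null samples. With the supplement factors 1 was higher and 1 lower in the complex, beside 9.4% and 35.5% of all rows. Under the same factors, limma called 0 higher and 2 lower outside it (0 and 4 where the p was not adjusted). As deposited, their median log2 changes were 0.28 and 0.50, and the difference between these groups was not tested. Dars, the aspartate enzyme of the complex, was the lower member. It lies on chromosome 1 from 130260285 to 130313993 and was at 47.3, 50.9 and 52.9 FPKM in WT against 35.0, 35.0 and 35.1 FPKM in Pabpn1-null oocytes. The 3 Pabpn1-null samples were almost equal and below every WT sample (log2 change -0.51, SE 0.13, limma adjusted p = 0.0106). The supplement factors made the fall larger (-1.06, limma adjusted p = 0.0018), and at the same total FPKM the log2 change was -0.32 and did not pass (limma adjusted p = 0.0733).
Qars was the other member of the complex that was higher beside Mars, with 110, 102 and 134 FPKM in WT against 156, 185 and 158 FPKM in Pabpn1-null oocytes, without overlap. Its log2 change was 0.53 (limma adjusted p = 0.0135), 0.45 without Pabpn1-null replicate 2 (limma adjusted p = 0.0523) and -0.02 with the supplement factors. Eprs was at 17.7, 17.4 and 20.0 FPKM in WT against 18.5, 25.0 and 18.9 FPKM in Pabpn1-null oocytes, with overlap, and Kars, the lysine enzyme of both compartments, at 19.3, 17.6 and 22.8 FPKM and 24.1, 22.1 and 24.3 FPKM, also with overlap. Their log2 changes of 0.16 and 0.24 did not pass (limma adjusted p = 0.457 and 0.239). Iars, Lars and Rars, the isoleucine, leucine and arginine enzymes, had log2 changes of 0.32, 0.45 and 0.19 and did not pass as deposited. At the same total FPKM, where 34.6% of all rows were called higher and 14.2% lower, Iars, Kars and Rars were also called higher.
Ratios within a sample do not depend on the scaling. The ratio of Mars to Dars was 0.114, 0.102 and 0.105 in WT and 0.446, 0.512 and 0.355 in Pabpn1-null oocytes. That of Qars to Dars was 1.995 to 2.53 in WT and 4.45 to 5.28 in Pabpn1-null oocytes. Neither ratio overlapped between the genotypes, but the pairs set the members called higher against the one called lower, so the ratios restate those calls.
The scaffold transcripts were lower where they moved. Eef1e1, which tethers Mars and also acts in the DNA damage response, was at 198, 200 and 221 FPKM in WT against 93.1, 77.4 and 93.1 FPKM in Pabpn1-null samples (log2 change -1.23, SE 0.13, limma adjusted p = 1.40e-04), and was lower under all 5 scalings. Aimp1, which is also secreted as a cytokine precursor, was at 51.6, 51.2 and 43.7 FPKM and 36.04, 28.7 and 32.9 FPKM (log2 change -0.57, limma adjusted p = 0.0112), a call lost at the same total FPKM (-0.38, limma adjusted p = 0.0563). Aimp2, the scaffold that joins the subcomplexes, overlapped between the genotypes at 85.8 to 124 FPKM in WT against 90.3 to 108 FPKM in Pabpn1-null oocytes.

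The cytosolic phenylalanine enzyme is built from alpha subunits, encoded by Farsa, and beta subunits, encoded by Farsb. Farsb rose from 152, 114 and 177 FPKM to 206, 186 and 207 FPKM, with no overlap (log2 change 0.45, SE 0.17, limma adjusted p = 0.0454). This call, just inside the threshold, held in 8 of 18 settings, was lost without WT replicates 1 or 2 or any 1 of the Pabpn1-null samples (limma adjusted p from 0.0745 to 0.138), and the log2 change turned to -0.11 with the supplement factors. Farsa was at 31.8, 28.3 and 42.6 FPKM in WT against 26.6, 39.9 and 27.3 FPKM in Pabpn1-null oocytes, with overlap and a log2 change of -0.13 (limma adjusted p = 0.622). The ratio of beta to alpha transcripts was 4.78, 4.04 and 4.15 in WT and 7.74, 4.65 and 7.58 in Pabpn1-null oocytes, overlapping because Pabpn1-null replicate 2 lay among the WT values. Farsb overlaps Sgpp2, which is on the other strand, by 2329 bases of genome, so its reads could be shared if strand was not used.
The cytosolic members not yet described were Hars, Nars, Vars and Wars, the histidine, asparagine, valine and tryptophan enzymes, with log2 changes of -0.35, 0.05, 0.47 and -0.07. None passed the test as deposited. Hars overlapped between the genotypes at 10.6 to 16.2 FPKM in WT against 8.83 to 11.3 FPKM in Pabpn1-null oocytes, and was called lower with the supplement factors (-0.86, limma adjusted p = 0.00795) and with quantile normalization (-0.53, limma adjusted p = 0.0441).

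Pars2, the mitochondrial proline enzyme, had the largest rise of the mitochondrial set. In mm9 it occupies 106323674 to 106327887 of chromosome 4 (plus strand). Its level was 3.10, 2.63 and 3.001 FPKM in WT against 8.91, 8.95 and 6.50 FPKM in Pabpn1-null oocytes, 2.79-fold higher on average. The lowest Pabpn1-null sample was above every WT sample, and the log2 change was 1.21 (SE 0.19, limma adjusted p = 8.77e-04). The call held in all 18 settings, including the supplement factors (0.75, limma adjusted p = 0.0219).
Sars2, the serine enzyme, on chromosome 7 from 29527010 to 29538871, was at 5.61, 3.85 and 6.03 FPKM in WT against 12.1, 14.6 and 10.3 FPKM in Pabpn1-null oocytes, without overlap (log2 change 1.12, SE 0.21, limma adjusted p = 0.00211). Mars2, the methionine enzyme, was at 2.13, 1.99 and 1.11 FPKM in WT against 4.44, 3.98 and 3.64 FPKM in Pabpn1-null oocytes, so that the lowest WT sample stood well below the others but all 3 were below the Pabpn1-null samples (0.89, limma adjusted p = 0.00656). Cars2, the cysteine enzyme, was at 6.09, 4.96 and 5.49 FPKM and at 11.1, 10.4 and 9.31 FPKM, again without overlap (0.79, limma adjusted p = 0.00472). Each of these calls was kept when any 1 sample was left out. Under the supplement factors the log2 changes of Sars2, Mars2 and Cars2 were 0.63, 0.50 and 0.30 and did not pass (limma adjusted p = 0.0536, 0.116 and 0.29).
Iars2, Vars2, Ears2 and Tars2, the isoleucine, valine, glutamate and threonine enzymes, were also called higher, with log2 changes of 0.70, 0.66, 0.61 and 0.53, and none overlapped between the genotypes. These were less stable, with calls in 12 of 17, 8 of 17, 11 of 18 and 8 of 18 settings. All were lost without Pabpn1-null replicate 2 (limma adjusted p from 0.0701 to 0.0815), without Pabpn1-null replicate 3 (0.0538 to 0.106) and with the supplement factors. Iars2 overlaps Rab3gap2, on the other strand, by 2018 bases of genome.
Rars2 was the mitochondrial member that was lower. It was at 44.1, 39.2 and 47.9 FPKM in WT against 32.6, 30.9 and 35.2 FPKM in Pabpn1-null oocytes, without overlap (log2 change -0.40, SE 0.15, limma adjusted p = 0.0444). The call was lost without any 1 sample other than WT replicate 2 (limma adjusted p from 0.0758 to 0.131) and at the same total FPKM (-0.20, limma adjusted p = 0.223), and the log2 change was -0.94 with the supplement factors (limma adjusted p = 0.00279). Yars2, the tyrosine enzyme, was also lower in every Pabpn1-null sample, at 6.43, 7.10 and 6.26 FPKM in WT against 5.39, 5.11 and 5.84 FPKM in Pabpn1-null oocytes, but did not pass as deposited (-0.24, limma adjusted p = 0.278).
Fars2, Wars2 and Nars2, the phenylalanine, tryptophan and asparagine enzymes, overlapped between the genotypes and had log2 changes of -0.06, -0.02 and 0.07. In Fars2, the mitochondrial enzyme with the highest level, the Pabpn1-null samples at 62.0, 52.4 and 66.2 FPKM lay almost wholly within the WT range, and with the supplement factors it was called lower (-0.61, limma adjusted p = 0.0175).

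In humans, variants of HARS2 and LARS2 cause Perrault syndrome, in which hearing loss is joined with ovarian insufficiency in women, and variants of AARS2 cause a leukodystrophy with ovarian failure. Lars2 was among the highest mitochondrial enzymes and did not pass the test, with 48.7, 80.03 and 38.5 FPKM in WT against 57.3, 56.0 and 49.8 FPKM in Pabpn1-null oocytes. The Pabpn1-null samples lay inside the wide WT range (log2 change 0.03, SE 0.23, limma adjusted p = 0.928). Aars2 was at 0.870, 0.767 and 0.988 FPKM in WT against 0.952, 2.53 and 0.886 FPKM in Pabpn1-null oocytes, with Pabpn1-null replicate 2 alone above the rest (0.33, limma adjusted p = 0.302). Hars2 stayed below 1 FPKM in every sample, at 0.359, 0.408 and 0.0483 FPKM in WT against 0.138, 0.345 and 0.152 FPKM in Pabpn1-null oocytes. Hars2 shares 198 bases of genome with Hars on the other strand and has a copy on chromosome X at 86.6% identity, so its level is uncertain. Kars and Iars have copies elsewhere in mm9 as well, 8 at 83.4% to 87.7% identity and 1 at 93.2% identity, where unique mapping could remove reads.

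The balance between the compartments was followed as the ratio of the cytosolic to the mitochondrial enzyme of the same amino acid within each sample. In 11 pairs with at least 1 FPKM in every sample, the ratio was higher without overlap in 3, lower in 4 and overlapping in 4, with a median log2 change of -0.07. No common shift between the compartments was seen in these pairs. The ratio of Eprs to Pars2, the enzymes for proline, moved the most, from 5.71, 6.60 and 6.67 in WT to 2.08, 2.79 and 2.90 in Pabpn1-null oocytes. For serine, Sars to Sars2 went from 4.51, 4.12 and 4.26 to 2.64, 2.55 and 2.95, since the mitochondrial transcript rose more.
The arginine pair moved the other way, from 2.99, 2.88 and 2.77 to 4.41, 4.49 and 4.23 for Rars to Rars2. These samples agreed closely within each genotype. Tars to Tars2 went from 3.59, 3.82 and 3.53 to 4.32, 4.69 and 4.52, and Lars to Lars2 from 0.122, 0.0918 and 0.101 to 0.130, 0.167 and 0.145. In leucine alone of these 11 pairs the mitochondrial transcript was the more abundant in every sample. A two-sided exact permutation test over 3 samples against 3 cannot go below p = 0.1, so these ratios are given as a description.

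**Figure D3:**
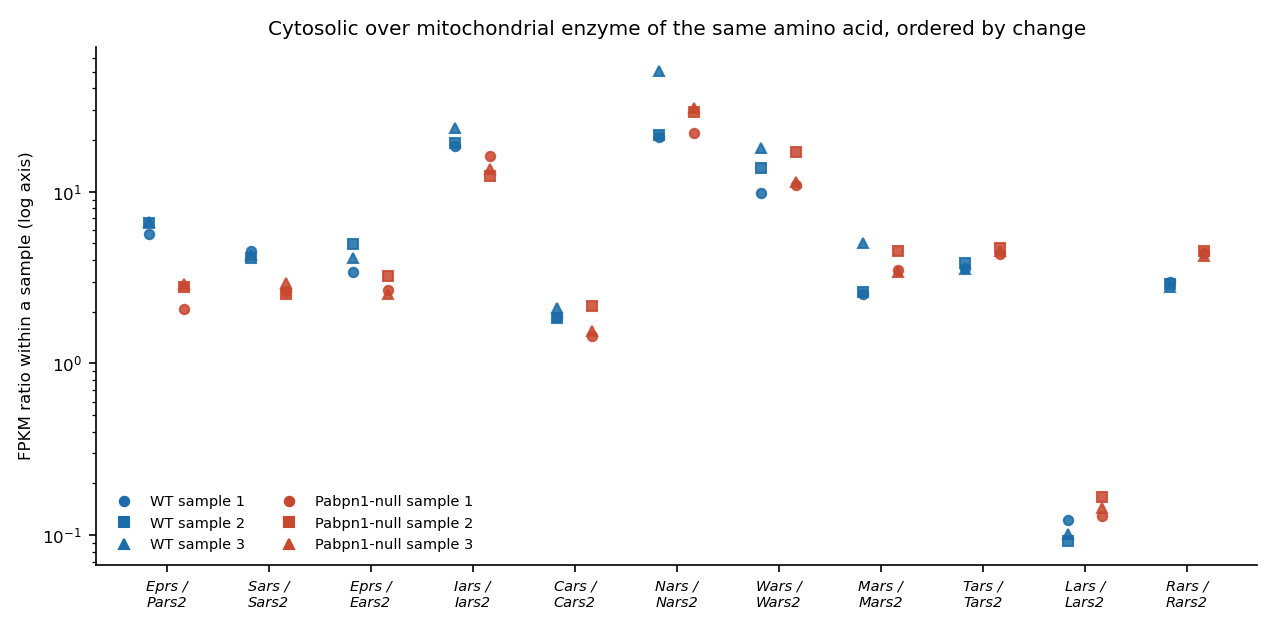
FPKM ratio (log axis) of the cytosolic over the mitochondrial enzyme of the same amino acid in each WT (blue) and Pabpn1-null (red) sample, ordered from the largest fall to the largest rise of the ratio. Eprs to Pars2 is lower and Rars to Rars2 higher in every Pabpn1-null sample, and 4 of the 11 pairs overlap.

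Of the 13 cytosolic synthetases known as ATF4 targets, 7 were higher and 0 lower by limma (also 7 and 0 at an unadjusted p under 0.05), beside 27.9% and 20.2% of all rows, with a median log2 change of 0.52, and of the other 7, 2 were higher and 1 was lower, with a median of 0.19. Without Vars and Yars, which passed the filter only through Pabpn1-null samples, 6 of 11 ATF4 targets were higher. Relative to the median of all rows, the ATF4 targets stood between 0.37 and 0.46 and the others between 0.00 and 0.14 under the 5 scalings, a difference that was not tested. With the supplement factors 1 of the 13 was higher by limma, Mars, and 0 were lower (1 and 2 at an unadjusted p under 0.05). Of the other 7, 0 were higher and 3 lower with these factors (also 0 and 3 unadjusted), and of all rows 9.4% and 35.5%. Of the genes with the ATF element printed above, Tars, Aars, Gars and Yars were called and Iars was not (59.98, 76.6 and 60.3 FPKM in WT against 81.4, 86.8 and 77.1 FPKM in Pabpn1-null oocytes, limma adjusted p = 0.0941). Of the ATF4 targets whose window lacked the element, Sars was called higher and Eprs was not called. The windows of the 5 other cytosolic enzymes that had one also lacked it, and of these Farsb and Qars were higher and Dars lower. A relation of the element to the change was not tested. Wars and Nars, ATF4 targets without a window, overlapped between the genotypes.
Other ATF4 targets moved in both directions. Of 24 tested, 10 were higher and 1 was lower, beside 27.9% and 20.2% of all rows, with a median log2 change of 0.30. With the supplement factors 5 were higher and 4 lower, beside 9.4% and 35.5%, and the median was -0.08, beside -0.36 for all rows. Of the 10, Sesn2, Stc2 and Fgf21 exceeded 1 FPKM only in Pabpn1-null samples, as did Nupr1, which was not called, and of the other 20 genes 7 were higher and 1 was lower. Fgf21, a hormone of the fasting response, was listed at 0 in every WT sample and at 8.06, 4.31 and 5.51 FPKM in Pabpn1-null oocytes. Slc6a9, a glycine transporter, went from 24.4, 26.7 and 19.5 FPKM to 61.4, 83.9 and 48.5 FPKM (log2 change 1.39, limma adjusted p = 6.61e-04). Trib3, a pseudokinase that restrains ATF4, and Pycr1, an enzyme of proline synthesis, rose by 1.28 and 1.27 on the log2 scale, and Slc6a9, Trib3 and Pycr1 were higher under all 5 scalings. Cth, which makes cysteine from cystathionine and was named after its values were seen, was the lower one (-1.14), a call lost without Pabpn1-null replicate 1 or 2 (limma adjusted p = 0.0796 and 0.0686).
Atf4 transcripts were at 200, 196 and 206 FPKM in WT against 272, 225 and 260 FPKM in Pabpn1-null oocytes, without overlap and just outside the threshold (log2 change 0.32, limma adjusted p = 0.052). With the supplement factors the log2 change of Atf4 took the other sign and did not pass (-0.23, limma adjusted p = 0.312). Of 12 tested sensors and factors of this response, 3 were higher and 1 was lower, beside 27.9% and 20.2% of all rows. Atf3, a stress-induced factor, and Eif2ak1, a kinase of the initiation factor eIF2, rose by 1.02 and 0.99 on the log2 scale, and Gcn1l1, the partner of the amino acid sensor kinase, by 0.70, a call lost without WT replicates 1 or 3 or Pabpn1-null replicates 1 or 2 (limma adjusted p from 0.0629 to 0.104). Cebpg, a dimer partner of ATF4, fell by 0.92. Scaled by the supplement factors, 0 of these 12 were higher and 3 were lower by limma, beside 9.4% and 35.5% of all rows. At an unadjusted p under 0.05 the counts were 2 and 3.

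Partners of the synthetases upstream and downstream of the charging step had calls in both directions as deposited. Of 6 elongation factors that carry charged tRNA or recharge its carrier, Eef1g was higher (log2 change 0.48, a call lost when WT replicate 2, Pabpn1-null replicate 1 or Pabpn1-null replicate 3 was left out, and turned to -0.06 with the supplement factors) and Eef1d was lower (-0.76, limma adjusted p = 9.28e-04). Over all rows 27.9% were higher and 20.2% lower. Eef1a1, the main carrier of charged tRNA, was at 659 to 830 FPKM in WT against 716 to 804 FPKM in Pabpn1-null oocytes and did not pass, nor did Eef1b2, Tufm and Tsfm (-0.11, -0.04 and -0.40), while Eef1a2 was listed at 0 in all samples. With the supplement factors the log2 change of all 6 was negative, and 5, all but Eef1g, were called lower, beside 35.5% of all rows. The call of Eef1a1 went both ways with the scaling. It was higher at the same total FPKM (0.30, limma adjusted p = 0.0315) and with quantile normalization (0.50, limma adjusted p = 0.00202).
The mitochondrion makes its glutamine tRNA by first charging it with glutamate, a step of Ears2, followed by an amidotransferase. Its subunit gene Pet112l rose from 1.52, 1.35 and 1.44 FPKM to 2.66, 2.89 and 2.86 FPKM (log2 change 0.64, limma adjusted p = 0.0125), whereas Qrsl1 and Gatc, for the other subunits, and Mtfmt, which formylates the initiator tRNA, had log2 changes of 0.22, 0.32 and 0.05 and did not pass. The call of Pet112l was lost with the supplement factors (0.27, limma adjusted p = 0.324).
Of 4 proofreading enzymes, which remove wrongly attached or D-amino acids, 2 were lower and 0 higher by limma, beside 20.2% and 27.9% of all rows. At an unadjusted p under 0.05, 3 were lower and 0 higher. 6530401N04Rik, an older symbol of Dtd2, had a log2 change of -0.87 and Aarsd1 one of -0.46, and Dtd1 (-0.63) and Prorsd1 (-0.08) did not pass. The call of 6530401N04Rik did not hold when WT replicate 1 or Pabpn1-null replicate 2 was left out (limma adjusted p = 0.0547 and 0.0535), and that of Aarsd1 without WT replicates 1 or 3 or Pabpn1-null replicates 1 or 3 (0.0833 to 0.136).
Selenocysteine is made on a tRNA that Sars charges with serine. Pstk, the kinase of that seryl-tRNA, was lower, with 81.0, 72.7 and 66.3 FPKM in WT against 27.8, 33.8 and 34.7 FPKM in Pabpn1-null oocytes (-1.17, limma adjusted p = 2.92e-04), under all 5 scalings. Sepsecs, the next enzyme of the path, and Sephs1 were higher (0.63 and 0.77), Sephs2, which makes the selenium donor, and the elongation factor Eefsec did not pass (-0.03 and 0.39), and with the supplement factors neither Sepsecs nor Sephs1 passed. The call of Sephs1 was lost without Pabpn1-null replicate 1 (limma adjusted p = 0.0521) and that of Sepsecs without any 1 sample other than WT replicate 3 (0.0635 to 0.118).
Of 27 tested genes of tRNA end maturation, splicing and export, 9 were higher and 8 were lower, beside 27.9% and 20.2% of all rows. With the supplement factors 1 was higher and 13 were lower, beside 9.4% and 35.5% of all rows. Tsen15, a subunit of the tRNA splicing endonuclease, fell from 54.4, 43.0 and 24.6 FPKM to 8.57, 9.11 and 6.57 FPKM (-2.14), and Elac2, which trims the 3′ end of the precursor, rose from 9.73, 8.43 and 11.7 FPKM to 37.2, 53.2 and 32.9 FPKM (1.93), both under all 5 scalings. Fam98b, of the tRNA ligase complex, and Pop1, of RNase P, had log2 changes of -1.02 and 0.95, and the call of Pop1 was lost with the supplement factors (0.43, limma adjusted p = 0.185).
Of 70 tRNA modification genes, 21 were higher, a share close to the 27.9% of all rows, and 5 lower, beside 20.2%. Their median log2 change was 0.26. Wdr4 and Adat3 exceeded 1 FPKM only in Pabpn1-null samples, and without them 20 of 68 were higher and 5 lower. Under the supplement factors 2 of the 70 were higher and 16 lower, beside 9.4% and 35.5% of all rows. The median turned to -0.18, beside -0.36 for all rows. Nsun3, a methyltransferase of a mitochondrial tRNA, rose by 1.92, Trmt1, a guanosine methyltransferase, by 1.29 and Pus10, a pseudouridine synthase, by 1.13, a call lost with the supplement factors (0.64, limma adjusted p = 0.073), while Lage3, of the KEOPS complex, fell by 1.63.
Of 16 tested amino acid transporters, 5 were higher and 2 were lower, with a median of 0.10 beside the 0.09 of all rows, of which 27.9% were higher and 20.2% lower. Beside Slc6a9, the leucine and neutral amino acid carriers Slc43a1 and Slc38a7 and the cationic carrier Slc7a2 had log2 changes of 1.22, 1.14 and 1.04. The supplement factors gave 3 higher and 5 lower, beside 9.4% and 35.5% of all rows, and the calls of Slc38a7 and Slc7a2 were lost (limma adjusted p = 0.0608 and 0.153).

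**Figure D4:**
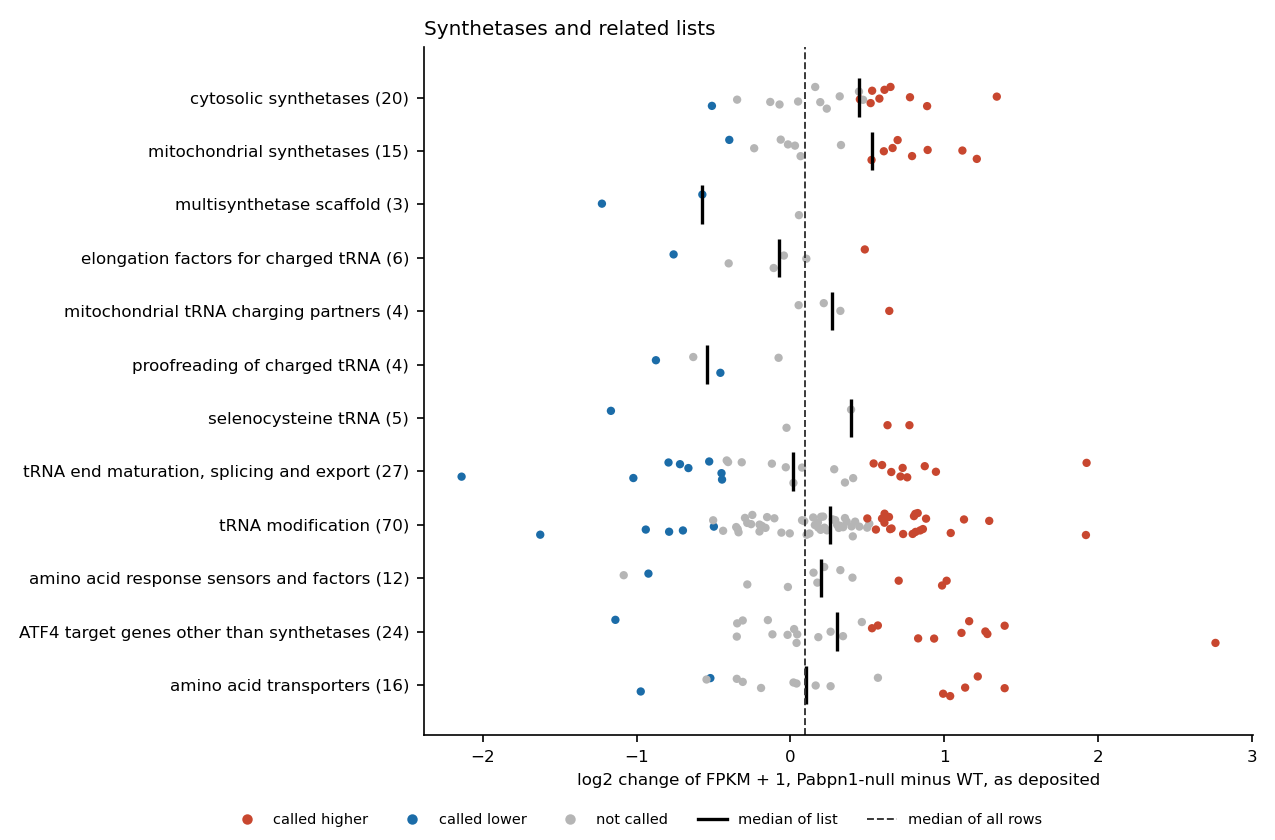
Log2 change of FPKM + 1 (Pabpn1-null minus WT, as deposited) of each tested gene of the synthetase sets and 10 related lists, coloured by its call, with the median of each list (black line) and of all rows (dashed line at 0.09). The synthetase medians of 0.45 and 0.53 lie to the right of the dashed line and the scaffold and proofreading medians to the left, positions that hold relative to all rows under the 5 scalings although the median of all rows moves to -0.36 with the supplement factors.

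Among the members, the change went with some features of the transcript, as a description only. Over the 35 tested members the Spearman correlation of the log2 change was -0.42 with the WT level, 0.35 with GC content and 0.26 with transcript length, against -0.28, 0.13 and 0.15 over 11638 coding rows. With the length of the 3′UTR it was 0.06, against 0.04 over the coding rows. The points share their 6 samples, and the WT level enters the change itself. The 17 enzymes called higher had a median WT level of 5.16 FPKM and the 16 without a call one of 19.1 FPKM. The poly(A) signal AATAAA stood in the last 50 bases of the annotated transcript for 22 of 36 members (61.1%), against 52.4% of 22594 coding genes, and for 10 of the 17 called higher. Synthetase transcripts had short annotated 3′UTRs, with medians of 265.5 bases for the cytosolic and 392 bases for the mitochondrial enzymes, against 778 bases for all coding rows tested.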

How the data were processed

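Values in the deposited table are FPKM plus 1, on 23235 gene symbols by 6 samples, so 1 was subtracted. By the methods of the authors, reads were trimmed, aligned with TopHat2 2.1.1 to mm9 together with ERCC spike-in sequences, and turned into FPKM from unique alignments by Cufflinks 2.2.1 guided by UCSC gene models. Their methods state a further normalization to the spike-in, but the table holds 0 spike-in rows and its values were used as deposited. Factors per sample (1.0, 1.4167 and 1.3077 for WT, 0.8333 for each Pabpn1-null sample) were estimated from 2003 transcripts of the study's supplementary table of changed transcripts, held in part, and served as an alternative scaling.

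The 12523 rows above 1 FPKM in 1 or more samples entered limma 3.58.1 (R 4.3.3, eBayes with trend) on log2(FPKM + 1), a pseudocount of 1, with genotype as the only term and Benjamini-Hochberg adjustment over all these rows. The step was tested on simulated data in which 200 of 12523 rows were changed. It recovered 96% of the changes of log2 size 2 and 57% of those of log2 size 1. Of the rows called, 6.13% were false. A missing call is therefore not evidence that a transcript did not change. Alternatives were 4 other scalings, other filters and pseudocounts, other eBayes settings, each sample left out in turn and the replicate number as a block, 17 in all. Per-sample values are given for non-overlapping called members with the 6 (cytosolic) or 4 (mitochondrial) largest rises and falls, the 3 highest of each compartment in WT, Hars2, Lars2, Aars2, Farsa, Farsb, Eprs, Gars and Kars. Of the lists, every member of those of at most 7 genes was named, and up to 4 called genes with the largest change in the others. Members and lists were chosen with earlier results of these data known. Gene positions and lengths were taken from GENCODE vM1 for all 36 members, and copies were found with minimap2 2.31 at 30% or more of the transcript and 80% identity. Promoter windows came from RefSeq (GRCm38.p6). Of 73 tRNA modification genes listed, 70 were in the table. Some items are not reported here.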

Additional observations from a re-analysis of the deposited data

How the results depend on the processing

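As deposited, 9 cytosolic enzymes were higher and 1 lower, and 8 mitochondrial enzymes were higher and 1 lower. The supplement factors gave 1 and 3, and 1 and 3, the same total FPKM 12 and 0, and 8 and 0, quantile normalization 7 and 2, and 5 and 1, no filter 4 and 1, and 5 and 1, a mean of at least 5 FPKM 8 and 1, and 4 and 1, and eBayes without trend 8 and 1, and 8 and 0. Leaving out a sample gave 3 to 8 cytosolic enzymes higher and 1 lower, and 4 to 7 mitochondrial enzymes higher and 0 to 1 lower. The other alternatives stayed within 1.5 times of each count. No filter with rows without spread left out, chosen after the data were seen, gave 7 and 1, and 6 and 1. The replicate number did not pair the samples (correlations of same-numbered samples -0.0135, -0.0149 and 0.0598), and with it as a block 7 and 1, and 8 and 1, were called, with the calls of Sars and Yars lost. Mars and Pars2 were called in all 18 settings.

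The log2 change took the other sign with the supplement factors for Eprs (-0.37), Farsb (-0.11), Iars (-0.23), Kars (-0.30), Lars (-0.041), Nars (-0.50), Qars (-0.025), Rars (-0.36), Lars2 (-0.52), Nars2 (-0.32), Aimp2 (-0.50), Eef1a1 (-0.46), Eef1g (-0.064), Qrsl1 (-0.28), Gatc (-0.10), Mtfmt (-0.49), Eefsec (-0.13), Atf4 (-0.23) and Ddit3 (-0.33). At the same total FPKM it did for Farsa (0.062), Wars (0.12), Fars2 (0.13), Wars2 (0.11), Eef1b2 (0.086), Tufm (0.15), Prorsd1 (0.10) and Sephs2 (0.17), with quantile normalization for Eprs (-5.67e-04), Lars2 (-0.046), Nars2 (-0.078), Mtfmt (-0.10) and Sephs2 (0.075), and with median-of-ratios scaling for Nars (-0.023), Lars2 (-0.043), Aimp2 (-0.018) and Mtfmt (-0.018). Of the genes given here, Farsb, Qars and Eef1g were called as deposited. Genes of the lists that were not described above also took the other sign with the supplement factors. Among them, Tyw1 (-0.049), D10Wsu52e (-0.010) and Shmt2 (-0.0047) were called higher as deposited. Over the samples left out in turn, the log2 change took both signs only in genes without a call: Farsa (-0.32 to 0.032), Nars (-0.022 to 0.14), Wars (-0.24 to 0.10), Fars2 (-0.15 to 0.032), Lars2 (-0.20 to 0.32), Nars2 (-0.15 to 0.18), Wars2 (-0.13 to 0.12), Aimp2 (-0.034 to 0.23), Eef1b2 (-0.18 to 0.0047), Tufm (-0.24 to 0.062), Mtfmt (-0.081 to 0.19) and Sephs2 (-0.15 to 0.046). The cause of these shifts was not tested. The number of reads behind each FPKM was not given, so the share of counting error in the spread of low members such as Yars, Vars, Aars2 and Hars2 was not set.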

Other observations

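The table also holds Tarsl2, a cytosolic threonine enzyme outside the list described above, which was named after its values were seen. It was at 0.554 to 0.891 FPKM in WT against 0.764 to 1.11 FPKM in Pabpn1-null oocytes, with overlap, and its log2 change of 0.18 did not pass (limma adjusted p = 0.433).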
